A study of Mus musculus with 4 samples.

Results

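The respiratory chain and ATP synthase of the inner mitochondrial membrane are built from subunits encoded mostly in the nucleus, and this account follows the transcripts of those nuclear genes in mouse embryoid bodies exposed to GSK-J4. Members were taken by name from the array's annotation: genes with symbols of the Nduf, Sdh, Uqcr, Cyc1, Cox4 to Cox8 and Atp5 families, without assembly factors, each read from its brightest probe set. This gave 81 genes of the 22180 on the array that had a single symbol, of which 33 belong by name to complex I, 4 to complex II, 9 to complex III, 17 to complex IV and 18 to complex V. Of the 81, 2 are annotated pseudogenes (Atp5c1-ps and Uqcrh-ps1), so 79 are subunit genes proper or close relatives.

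The cells were R1, an established mouse embryonic stem cell line, freed of feeder cells and left to aggregate for 18 h without LIF, the cytokine that holds stem cells undifferentiated. There were 4 treatments with 1 array each: GSK-J4 at 1.88 µM, GSK-J5 at 1.88 µM, DMSO, and EB medium with nothing added. GSK-J4 is a cell-permeable ester prodrug of an inhibitor of the KDM6 histone demethylases, and GSK-J5 is the ester of its isomer with little activity on those enzymes. Every array came from the same line under the same LIF withdrawal, but the controls differ in more than the inhibitor: DMSO holds no ester compound and the medium array nothing added. No stem cells from before aggregation are among the arrays analysed.

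Complex I takes electrons from NADH and complex II from succinate; both pass them to ubiquinone, from which complex III hands them to cytochrome c and complex IV to oxygen. Complexes I, III and IV pump protons, and complex V, the ATP synthase, lets them flow back to make ATP. Each large complex has a few core subunits that carry the flavin, iron-sulphur, haem or nucleotide sites, and many accessory subunits around them. Several complex IV subunits exist as paralogues used in particular tissues, such as muscle or testis. NRF1 and the ETS factor GABP are transcription factors well known for binding the promoters of these genes.

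Values are log2 expression levels made by the authors with RMA, so a difference of 1 is a 2-fold change. With 1 array per treatment no difference has a replicate check, and no test was possible between treatments as such; the range of the 3 controls is the only spread at hand, and it holds treatment and technical variation together. The margin of a gene is how far its GSK-J4 value lies outside the control range, measured from the control next to it. Genes with a margin of 1.5-fold or more (0.585 in log2) are counted below as higher or lower. Counts cover genes with a 4-array mean of 6.59 (log2) or more, the 40th percentile of all genes, which leaves 13314 genes and 73 of the 81 members. The 8 members under that level were Atp5c1-ps, Atp5j2, Cox7b2, Cox8b, Cox8c, Ndufa4l2, Ndufs5 and Uqcrh-ps1. The members nearest the limit were Atp5j2 (mean 6.54) and Ndufa4l2 (6.26) below it and Cox4i2 (7.15) and Atp5g1 (7.20) above it.

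The array medians were 6.64 (GSK-J4), 6.64 (GSK-J5), 6.65 (DMSO) and 6.63 (medium). Most markers of embryonic stem cells were abundant on every array. The median level of 10 such genes was 11.8 in GSK-J4 and 12.4 in each control. Dppa5a was under the filter level, and Fgf5 read 7.23 in GSK-J4 against 8.66 to 8.83. Of the 9 that passed, 7 lay below all controls and 0 above, against 35.5% and 38.0% of all genes. The epiblast genes Fgf5 and Dnmt3b were counted lower (all genes 0.841%). For 10 feeder fibroblast markers the summed level, in log2, was 10.14 in GSK-J4 and 10.24 to 10.32 in the controls, with none counted. Of these 10, 6 passed the filter (Thbs1, Col1a2, Pdgfrb, Col1a1, Thy1 and Loxl1), of which the first 4 named read below all controls in GSK-J4, and Loxl1 above them. The 4 under the filter were Dcn, Lum, Postn and Col3a1. Primitive endoderm markers (8 genes) summed to 10.08 in GSK-J4 and 9.85 to 9.96 in the controls, also with none counted. Only 3 of these passed the filter (Lama1, Gata4 and Dab2), and all 3 read above all controls in GSK-J4, with margins of 0.40, 0.10 and 0.07. In such bulk RNA fewer cells of a type and less RNA per cell cannot be told apart, and the part of cell composition in the results below was not tested.

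Most subunit genes differed little, and the small differences ran mainly downward. Of the 73 members that passed the filter, 38 (52.1%) read below all 3 controls in GSK-J4 by some amount, against 35.5% of all 13314 genes. By contrast 13 members (17.8%) read above all controls, against 38.0% of all genes, and 22 (30.1%) lay inside the control range, against 26.5%. At or over the median level of the 73, 40.5% of members read below all controls, against 45.5% of all genes there. Under that level it was 63.9%, against 32.9%, so the excess below the controls lay in the dimmer members. Above all controls were 18.9% of the brighter members (all genes 30.7%) and 16.7% of the dimmer (39.9%). The part of brightness in these shares was not tested. The median GSK-J4 minus control mean was −0.08 over these members and 0.00 over all genes, and without the filter it was −0.08 over the 81 members and −0.02 over the 22180 genes. Of all 81, 40 lay below the controls and 13 above, where 36.3% of the 22180 genes lay below and 30.6% above. Across the 73 members the differences spread from −0.76 to 1.08. The downward shift is small: the middle 50% of the members lay between −0.19 and 0.01.

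Over the 73 members together the shift was not seen between controls. The GSK-J5 minus DMSO median of the 73 members was 0.03 (all genes 0.01) and the DMSO minus medium median −0.01 (all genes −0.02). Within single complexes some control medians were larger. The GSK-J5 minus medium median of complex I was 0.08, while its median GSK-J4 difference was −0.02. The DMSO minus medium median was −0.065 in complex II, −0.045 in complex III and 0.045 in complex V. Against the controls taken singly, which share the GSK-J4 array, the member median was −0.09 for GSK-J4 minus GSK-J5, −0.06 for GSK-J4 minus DMSO and −0.06 for GSK-J4 minus medium, beside 0.00, 0.01 and 0.00 for all genes. By a 1.5-fold difference between the compounds at the same dose and time, GSK-J4 minus GSK-J5, 2 of the 73 members were higher, against 3.28% of all genes, and 3 lower, against 1.39%. The same 2 were higher in GSK-J4 minus DMSO (against 3.89% of all genes) and in GSK-J4 minus medium (against 2.96%). Of the 3 lower genes 2 were so there too (against 1.57% and 1.67% of all genes), Cox7a1 being past 1.5-fold only against GSK-J5. Between controls no member reached 1.5-fold in either direction. For all genes the shares there were 0.0526% higher and 0.12% lower in GSK-J5 minus DMSO, 0.12% and 0.0376% in DMSO minus medium, and 0.0901% and 0.0976% in GSK-J5 minus medium. The member that differed most between these controls was Cox4i2, a complex IV isoform known from lung and hypoxic cells, at 7.37 in GSK-J5, 6.84 in DMSO and 7.39 in medium. Its GSK-J4 value of 7.01 lay inside that range.

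By the 1.5-fold rule 2 members were higher (2.74%, against 2.21% of all genes) and 2 lower (2.74%, against 0.841%), shares that rest on 2 genes each. The higher pair was Cox6a2 and Cox6b2, both complex IV isoforms, and the lower pair Uqcrh of complex III and Atp5mpl of complex V. With the controls taken as replicates, limma called 3 members higher (against 8.22% of all genes) and 6 lower (against 4.99%) at an adjusted p of 0.05, but its spread comes from 3 differently treated arrays. Just short of the 1.5-fold limit were Ndufb11 (margin 0.50) and Cox7a1 (−0.49), and just past it Atp5mpl (−0.60) and Uqcrh (−0.72). At a 1.2-fold margin 3 members were higher (4.11%, against 9.73% of all genes) and 8 lower (11.0%, against 6.02%). The added genes at that size were Ndufb11 above, and Cox7a1, Cox7a2, Cox6b1, Atp5g3, Atp5k and Atp5e below.

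**Figure D1:**
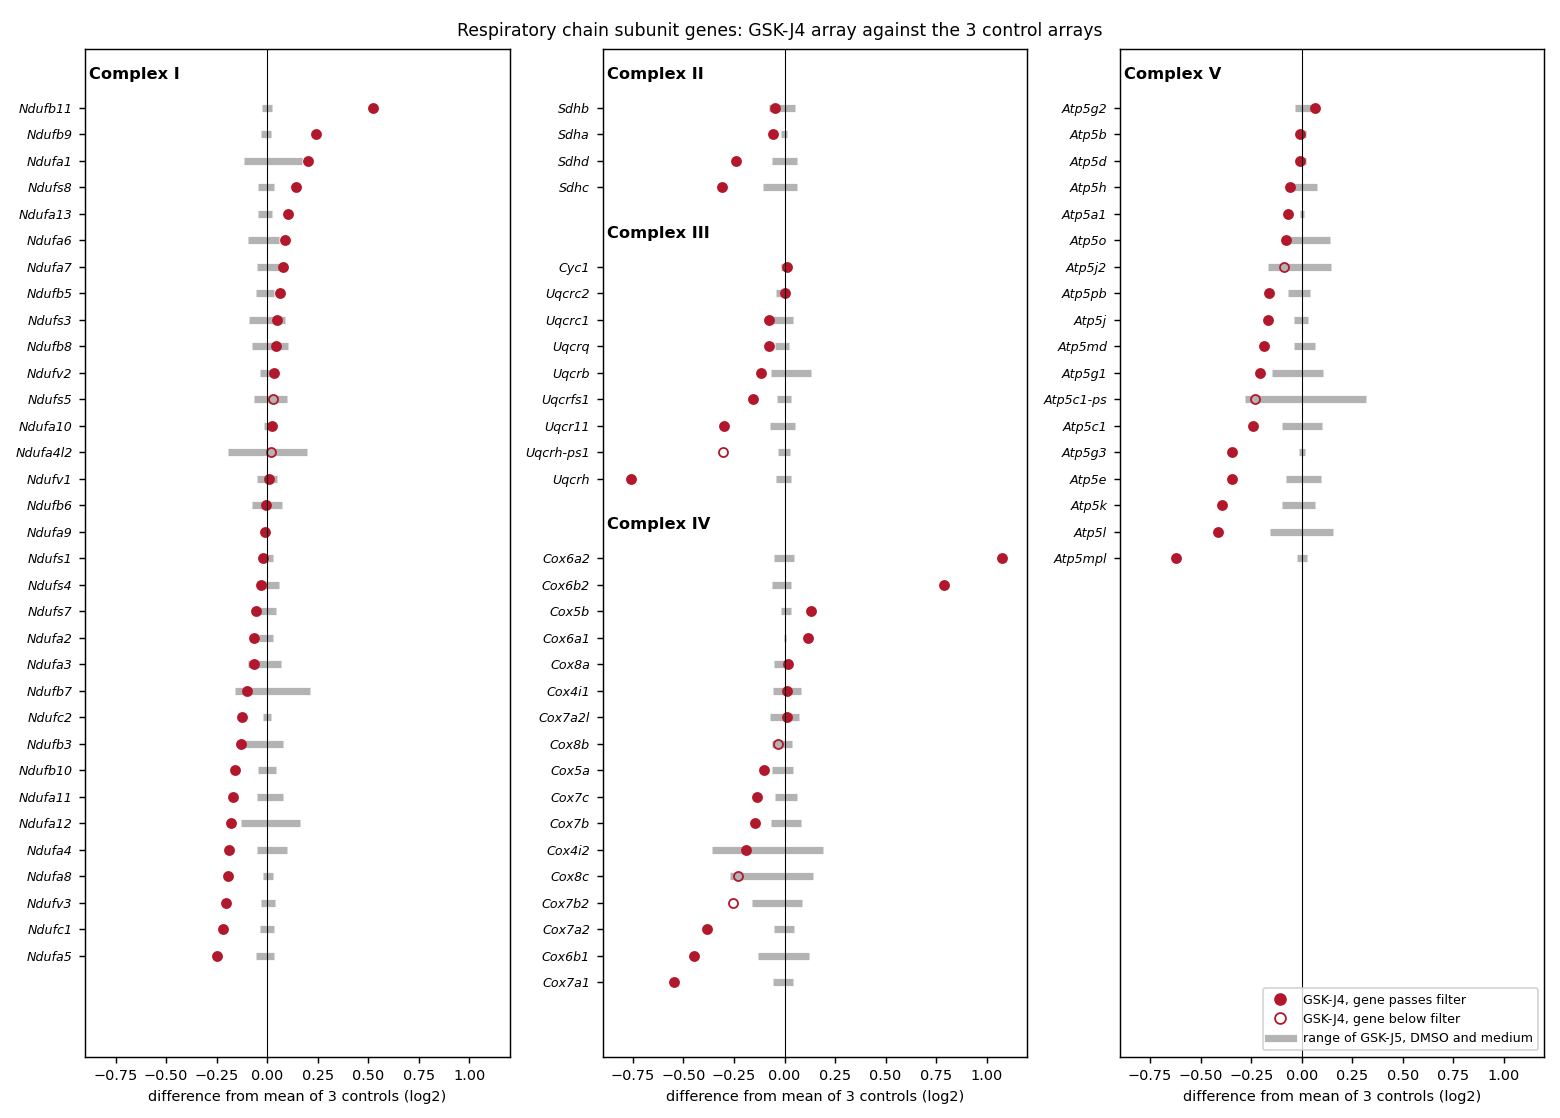
Difference of the GSK-J4 array from the mean of the 3 control arrays (x axis, log2) for each of the 81 genes, by complex; grey bars give the range of the GSK-J5, DMSO and medium arrays about their mean, and open circles are genes under the filter level. Cox6a2 (1.08) and Cox6b2 (0.79) stand to the right, Uqcrh (−0.76) and Atp5mpl (−0.62) to the left, and nearly all complex V genes lie left of 0.

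**Figure D2:**
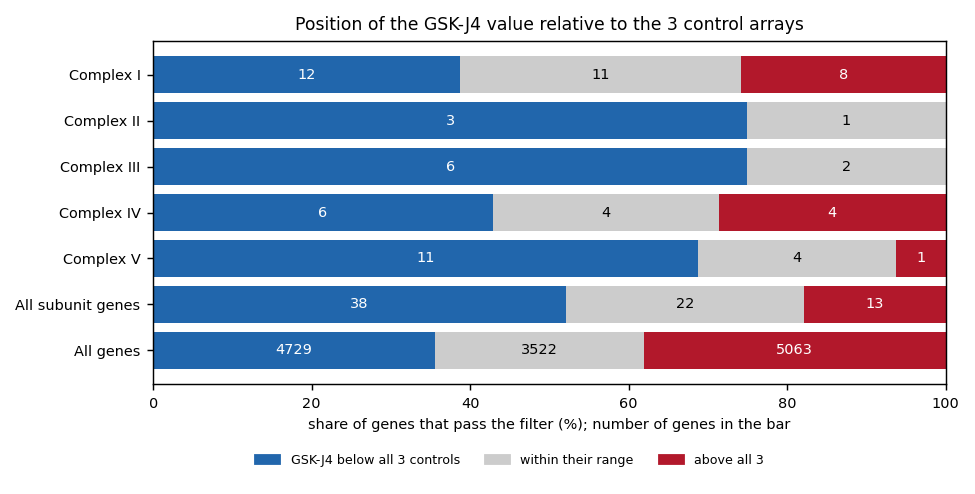
Share of genes that passed the filter (x axis, %) whose GSK-J4 value lay below, within or above the range of the 3 control arrays, with gene numbers in the bars. In complexes II, III and V, 3 of 4, 6 of 8 and 11 of 16 genes lay below all controls, against 4729 of 13314 among all genes.

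Promoter sequence is shown for Uqcrh and Cox6b2, which passed the 1.5-fold margin, and for Cox6b1 and Cox6a1, the widely used paralogues of the raised isoforms, which did not. Cox6a2 and Atp5mpl, the other genes past the margin, had no entry in the promoter table used. RefSeq promoter windows on GRCm38.p6, 250 bases before to 50 after the start, were matched by symbol for 64 of the 81 members. The 250 bases before the start are printed, with capitals for the NRF1 core GCGCATG and the ETS core CCGGAAG on either strand.

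Cox6b2 (chr7:4753095-4753344, minus strand), the higher testis-type isoform: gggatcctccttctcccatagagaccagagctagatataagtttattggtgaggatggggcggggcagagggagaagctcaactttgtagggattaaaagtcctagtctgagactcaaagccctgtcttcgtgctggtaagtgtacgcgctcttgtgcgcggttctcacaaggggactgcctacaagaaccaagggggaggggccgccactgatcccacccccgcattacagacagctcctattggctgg
Cox6b1 (chr7:30626115-30626364, minus strand), its widely used paralogue: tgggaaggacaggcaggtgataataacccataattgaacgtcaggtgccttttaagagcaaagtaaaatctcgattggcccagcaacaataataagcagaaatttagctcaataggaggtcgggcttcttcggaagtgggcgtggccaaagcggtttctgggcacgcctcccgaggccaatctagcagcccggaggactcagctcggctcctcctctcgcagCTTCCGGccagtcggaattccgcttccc
Cox6a1 (chr5:115348959-115349208, minus strand), the widely used paralogue of Cox6a2: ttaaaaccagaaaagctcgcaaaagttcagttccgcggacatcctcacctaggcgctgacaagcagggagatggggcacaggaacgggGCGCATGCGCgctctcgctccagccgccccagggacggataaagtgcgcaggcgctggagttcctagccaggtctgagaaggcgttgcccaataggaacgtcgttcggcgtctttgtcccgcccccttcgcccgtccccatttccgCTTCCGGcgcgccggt
Uqcrh (chr4:116075071-116075320, minus strand), the lowest member: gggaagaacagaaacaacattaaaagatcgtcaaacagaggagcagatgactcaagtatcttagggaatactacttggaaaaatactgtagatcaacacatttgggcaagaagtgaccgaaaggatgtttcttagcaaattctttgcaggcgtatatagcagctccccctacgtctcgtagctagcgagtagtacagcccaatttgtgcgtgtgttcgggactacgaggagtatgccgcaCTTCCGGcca

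Of these 4 windows, that of Cox6b2 holds neither core, as do most member windows: 24 of 69 hold either. The ETS core begins 10 bases before the start in Uqcrh, 16 in Cox6a1 and 28 in Cox6b1, each on the opposite strand. Cox6a1 also has the NRF1 core on both strands, in overlapping copies that begin 162 and 159 bases before the start. Over all 69 member windows the NRF1 core occurred in 18.8%, against 3.91% of the 32851 windows in the table and 6.59% of those of genes that passed the filter. The ETS core occurred in 24.6% of member windows, against 8.86% of all windows and 16.1% of those of genes that passed. Both cores together were found in 6 member windows (8.7%), those of Atp5k, Atp5l, Cox6a1, Ndufb6, Sdhb and Uqcr11. This compares with 0.682% of all windows and 1.3% of those of genes that passed. The median share of G and C was 57.3% in member windows, 60.7% in windows of genes that passed and 52.7% in all windows, and both cores hold CG steps.

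Members with and without a core overlapped in their GSK-J4 differences. The 13 members with the NRF1 core that passed the filter had a median difference of −0.05 (−0.42 to 0.13) and the 47 without it −0.10 (−0.76 to 0.79). For the ETS core the medians were −0.17 with it (17 members, −0.76 to 0.14) and −0.08 without (43 members, −0.55 to 0.79). A match is a description of letters and shows no binding.

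**Figure D3:**
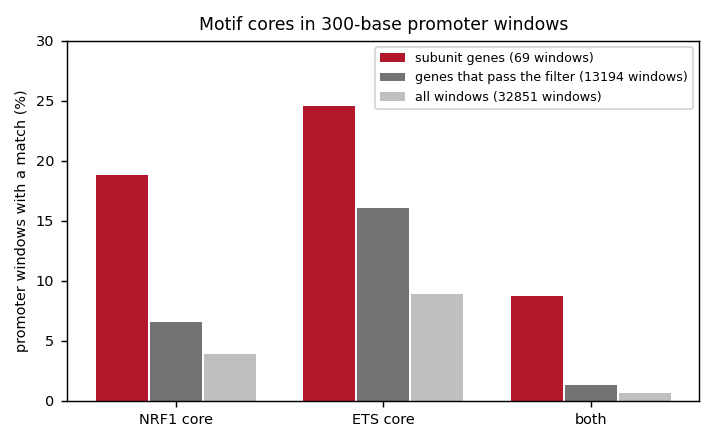
Share of 300-base promoter windows (y axis, %) with the NRF1 core, the ETS core or both, for the 69 windows of subunit genes, the windows of genes that passed the filter and all 32851 windows. The subunit bars are the tallest in each group, at 18.8%, 24.6% and 8.7%.

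Complex IV held the widest spread of any complex (SD of the differences 0.443). The isoforms of subunit 6B went in opposite directions, while those of 6A both lay above all controls and those of 7A both below. Cox6a2 encodes the heart and skeletal muscle form of subunit 6A, which modulates the oxidase. It read 8.25 in GSK-J4, against 7.18 in GSK-J5, 7.12 in DMSO and 7.22 in medium, a margin of 1.03 or 2.04-fold. Only the GSK-J4 array stood apart, and the controls spanned 0.10. Its paralogue Cox6a1, used in most tissues, read 13.47 in GSK-J4, against 13.35, 13.35 and 13.36 in GSK-J5, DMSO and medium. That is a margin of 0.11, above controls that nearly coincide.

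Cox6b2, the testis form of subunit 6B, which lies where the monomers of the oxidase dimer meet, read 9.25 in GSK-J4, against 8.49 in GSK-J5, 8.40 in DMSO and 8.49 in medium (margin 0.76, 1.69-fold). Its paralogue Cox6b1 read 10.59 in GSK-J4, against 11.16, 10.91 and 11.05 in GSK-J5, DMSO and medium, a margin of −0.32. Within subunit 6B only the testis form passed 1.5-fold; Cox6b1 lay below its controls, which spread over 0.25, and did not pass.

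No other muscle or testis isoform was counted higher. Cox7a1, the muscle form of subunit 7A, read 9.51 in GSK-J4, against 10.10 in GSK-J5, 10.00 in DMSO and 10.07 in medium. Its common paralogue Cox7a2 read 11.69 in GSK-J4, against 12.08, 12.12 and 12.02. Both forms of subunit 7A lay below all controls, with margins of −0.49 and −0.33, and neither passed 1.5-fold. Cox8b (muscle), Cox8c and Cox7b2 (testis) lay under the filter level on every array, and their GSK-J4 values of 5.83, 5.48 and 4.53 lay within the control range or, for Cox7b2, 0.09 below it. Of 6 muscle markers (Myh6, Myh7, Tnnt2, Actc1, Ckm, Myod1) 0 read above all controls, and their summed level in log2 was 9.10 in GSK-J4 and 9.25 to 9.45 in the controls. Myh7 and Actc1 were under the filter level and the other 4 near it, at most 7.42 on any array, and the part of muscle cells in the Cox6a2 value was not tested.

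The remaining complex IV subunits stayed near the controls. Cox4i1, the regulatory subunit 4 of most tissues, read 12.17 in GSK-J4, against 12.24, 12.10 and 12.13 in GSK-J5, DMSO and medium. Cox5b had a margin of 0.10 and Cox5a one of −0.04, and Cox8a lay within the controls. Cox7b and Cox7c, small membrane subunits, had margins of −0.08 and −0.09. Cox7a2l, which helps join complexes III and IV into supercomplexes, also lay within them (9.45 against 9.37 to 9.51). Of the 14 complex IV genes that passed the filter, 6 (42.9%) were below and 4 (28.6%) above all controls (all genes 35.5% and 38.0%). The median difference of these 14 was −0.05, and 0.01 with a stricter filter. It reached −0.12 when Ndufa4, a protein now assigned to complex IV, was moved there and Cox7a2l, Ndufa4l2 and the 2 pseudogenes were left out. Against single controls the median of the 14 was −0.08 (GSK-J5), 0.07 (DMSO) and −0.05 (medium), so its sign depended on the control. Their GSK-J5 minus DMSO median was 0.065.

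**Figure D4:**
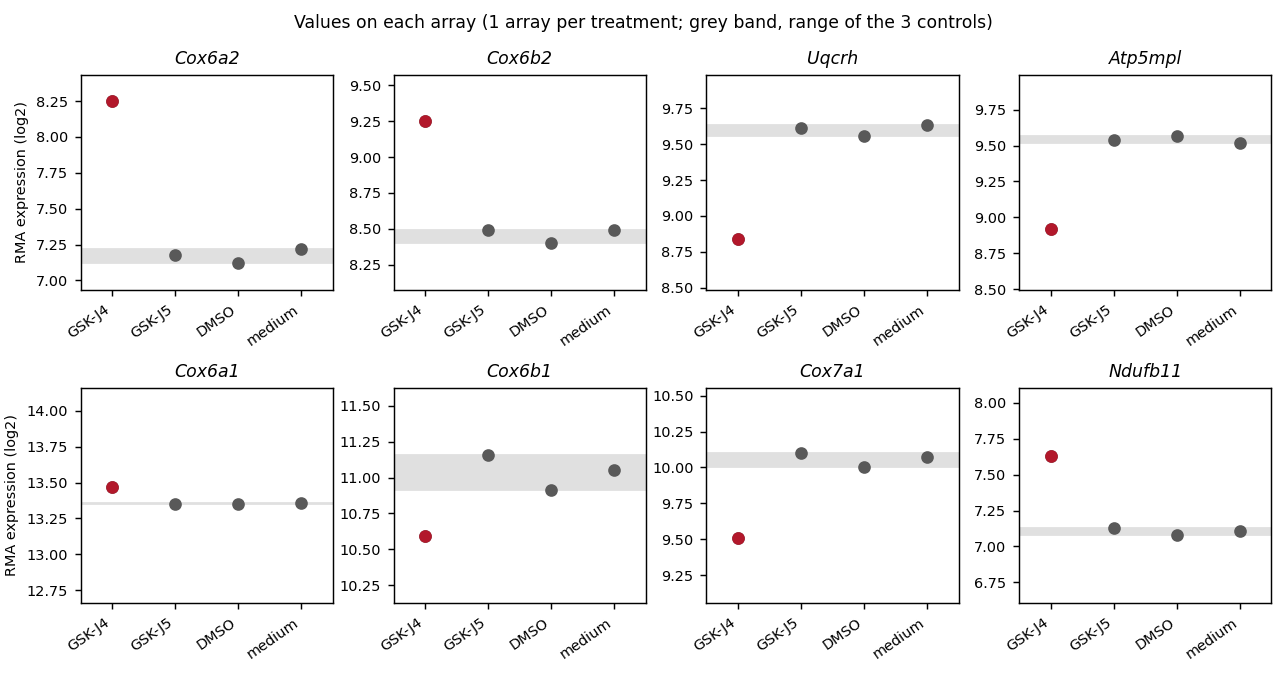
RMA expression (y axis, log2; each panel spans 1.5 units) on the GSK-J4, GSK-J5, DMSO and medium arrays for 8 genes, with the range of the controls as a grey band. GSK-J4 lies above the band for Cox6a2, Cox6b2, Cox6a1 and Ndufb11, and below it for Uqcrh, Atp5mpl, Cox6b1 and Cox7a1.

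Complex III contained the lowest member. Uqcrh, the hinge protein that contacts cytochrome c1, read 8.84 in GSK-J4, against 9.61 in GSK-J5, 9.56 in DMSO and 9.63 in medium, a margin of −0.72 (1.65-fold lower). The controls lay within 0.07 of each other. The annotated pseudogene Uqcrh-ps1 read 4.47 in GSK-J4 and 4.74 to 4.80 in the controls, under the filter level. Whether transcripts of such copies reach the Uqcrh probes was not tested.

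The small subunit gene Uqcr11 followed at 9.48 in GSK-J4, against 9.83, 9.71 and 9.80 in GSK-J5, DMSO and medium (margin −0.23). Uqcrfs1, the Rieske iron-sulphur protein, had a margin of −0.12. Cytochrome c1 itself, Cyc1, read 12.33 in GSK-J4 and 12.30 to 12.33 in the controls, and Uqcrc2, a core scaffold protein, 12.32 against 12.28 to 12.34. Of 8 complex III genes, 6 lay below all controls and none above. The hinge protein and its partner cytochrome c1 therefore differed from the controls by very unlike amounts.

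In complex V nearly every gene leaned downward. Of the 16 that passed the filter, 15 had a negative difference, 11 lay below all controls, and Atp5g2 alone lay above them, by 0.02. Of all genes 48.9% had a negative difference, 35.5% lay below all controls and 38.0% above. The median of −0.18 was the lowest of the 5 complexes with the filter used here. The lowest gene was Atp5mpl, a small proteolipid of the synthase's membrane part, at 8.92 in GSK-J4, against 9.54 in GSK-J5, 9.57 in DMSO and 9.52 in medium (margin −0.60, 1.52-fold lower). Atp5mpl passed the 1.5-fold limit by little.

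Other small membrane subunits of the synthase leaned the same way. Atp5l (subunit g) read 9.11 in GSK-J4, against 9.37 in GSK-J5, 9.53 in DMSO and 9.68 in medium. Atp5k (subunit e) read 10.08, against 10.51, 10.54 and 10.38. These subunits help the synthase form dimers in the cristae, and their margins were −0.26 and −0.30. For Atp5l the controls themselves spread over 0.31, more than the margin.

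The 3 genes for the c subunit, which encode the same mature protein of the rotating ring, did not move together. Atp5g3 read 10.28 in GSK-J4, against 10.61, 10.62 and 10.64 in GSK-J5, DMSO and medium (margin −0.33). Atp5g1 read 7.04 in GSK-J4, against 7.10, 7.29 and 7.35, only 0.06 below the nearest control. Atp5g2 read 12.91 in GSK-J4, against 12.81, 12.89 and 12.83. In the catalytic head Atp5b, the catalytic beta subunit, read 13.96 against 13.95 to 13.99 in the controls and Atp5a1 (alpha) had a margin of −0.06. Atp5c1 (gamma, the rotor shaft) differed more, by −0.24 from the control mean with a margin of −0.14. Atp5e, the epsilon subunit, had a margin of −0.27 on its brighter probe set and lay within the controls on the other.

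Complex II has 4 subunits, and its membrane anchors lay further below the controls than the others. The membrane anchor Sdhc read 10.56 in GSK-J4, against 10.93 in GSK-J5, 10.76 in DMSO and 10.91 in medium, and the anchor Sdhd 10.38, against 10.62, 10.56 and 10.68. Their margins were −0.20 and −0.18, neither past 1.5-fold, and the Sdhc controls themselves spread over 0.17. The catalytic flavoprotein Sdha had a margin of −0.04 and the iron-sulphur subunit Sdhb (10.00 against 9.97 to 10.10) none. All 4 differences from the control mean were negative (48.9% of all genes), with a median of −0.15.

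Complex I is the largest complex. Of its 31 genes that passed, 12 (38.7%) lay below, 8 (25.8%) above and 11 within the controls. For all genes the shares were 35.5% below and 38.0% above. The median difference of complex I was −0.02, and none of its genes was counted. Ndufb11, an accessory subunit of the membrane arm, was the highest at 7.63 in GSK-J4, against 7.13 in GSK-J5, 7.08 in DMSO and 7.11 in medium. Its controls spanned 0.05 and its margin of 0.50 fell short of 1.5-fold. Next came the accessory genes Ndufb9, at 12.04 in GSK-J4 and 11.77 to 11.82 in the controls, and Ndufa1, whose margin was 0.03.

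At the lower end of complex I were Ndufa5, Ndufc1 and Ndufv3, all accessory subunits, with margins of −0.19, −0.18 and −0.17. Ndufa4 read 10.96 in GSK-J4, against 11.25 in GSK-J5 and 11.10 in both DMSO and medium. Its hypoxia-inducible paralogue Ndufa4l2 was under the filter level and lay within the controls (6.27 against 6.06 to 6.45). The subunits that carry NADH oxidation and the iron-sulphur relay hardly differed: Ndufv1, Ndufv2, Ndufs1 and Ndufs3 lay within the controls, Ndufs7 0.01 below them and Ndufs8 0.11 above. The iron-sulphur core was thus flat where its accessory genes went both ways.

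Across complexes, the genes listed as core lay closer to the controls than the others. From complexes I and II the list held Ndufs1, Ndufs3, Ndufs7, Ndufs8, Ndufv1, Ndufv2, Sdha, Sdhb, Sdhc and Sdhd. From complexes III to V it held Uqcrfs1, Cyc1, Uqcrc1, Uqcrc2, Cox4i1, Cox5a, Cox5b, Atp5a1, Atp5b and Atp5c1. It is wider than the site-bearing subunits described above, as it includes the scaffold protein Uqcrc2 and the regulatory subunit Cox4i1. Of these 20 genes, 9 (45.0%) lay below all controls, 2 (10.0%) above (Ndufs8 and Cox5b) and 9 within, with a median difference of −0.04. Of the 53 other members that passed, 29 (54.7%) lay below and 11 (20.8%) above, with a median of −0.12. Among all genes 35.5% lay below and 38.0% above, and among those at or over the median level of the 73 45.5% lay below. The SD of the differences was 0.116 over the core genes and 0.299 over the others, and all 4 counted genes were among the others. Over all genes that passed the SD was 0.282. For those at or over the median level of the 73 it was 0.203, and for those under it 0.298. The lowest core gene was the complex II anchor Sdhc, at −0.31. Core genes had the brighter probe sets, with a median level of 11.78 against 10.38 for the others. Among members at or over the median level of the 73 the median difference was −0.02, and among those under it −0.16, while for all genes split at that level it was −0.03 and 0.01. The part of probe brightness in the contrast was not tested.

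**Figure D5:**
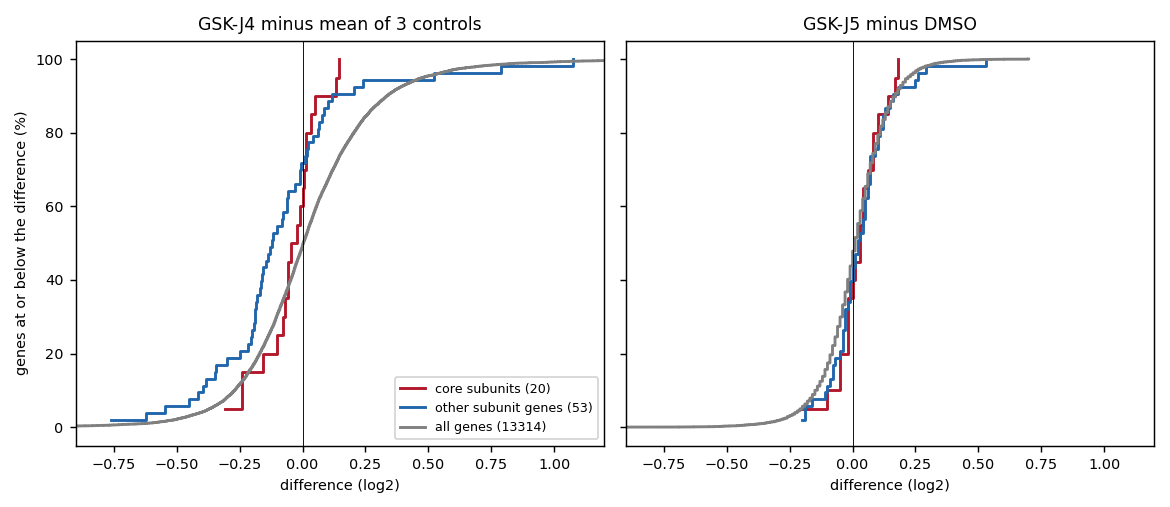
Cumulative share of genes (y axis, %) against differences in log2. The left panel shows the GSK-J4 array minus the mean of the 3 controls, and the right panel GSK-J5 minus DMSO. Curves are for 20 genes listed as core subunits, 53 other subunit genes and all 13314 genes. On the left the other subunit genes lie left of all genes over most of the range, with a median of −0.12, and the core genes rise steeply near 0; on the right the 3 curves nearly coincide.

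For 9 members a further probe set with a single symbol was on the array. None passed 1.5-fold, and 5 of 9 had the sign of the probe set used. The widest disagreement was in Atp5h, where the brighter probe set read 11.88 in GSK-J4 and 11.87 to 12.01 in the controls, and the other 7.94 against 7.39 to 7.48. A further 10 probe sets list a member together with another gene and were left out; 7 of these lay below all controls, 2 above, and none past 1.5-fold.

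Genes that serve the chain without being nuclear subunits of it gave a mixed picture. Of 46 measured assembly factors that passed the filter, 18 lay above and 14 below all controls, with a median of 0.00 and none counted. Of all genes that passed, 38.0% lay above and 35.5% below, with a median of 0.00 and 2.21% counted higher and 0.841% lower. The highest were Ttc19, a complex III factor (8.97 in GSK-J4 against 8.46 to 8.70), and Cox14 (8.49 against 7.99 to 8.15). The lowest were Pet100 (8.36 against 8.71 to 8.78) and Cox19 (7.96 against 8.18 to 8.23), both complex IV factors. As a list the assembly factors thus showed no downward lean relative to all genes.

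Among 18 regulators of respiratory genes and factors of mitochondrial DNA, 1 was counted, Myc (9.75 in GSK-J4 against 10.45 to 10.56, lower). Of all genes that passed, 0.841% were counted lower. Ssbp1, the mitochondrial single-strand DNA binding protein, had a margin of −0.22, and at the upper end Esrrb and Mtor had margins of 0.11 and 0.08. Nrf1 read 9.78 in GSK-J4 and 9.74 to 9.81 in the controls, and Tfam, which packages mitochondrial DNA, 10.13 against 10.06 to 10.25. Of the GABP genes, Gabpa had a margin of −0.07 and Gabpb1 one of 0.03. Ppargc1a was under the filter level on all arrays.

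Of 20 genes for mobile carriers and other electron input, 9 lay above and 5 below all controls, against 38.0% and 35.5% of all genes. The median of these 20 was 0.02, and none was counted. Etfdh, which feeds electrons from fatty acid oxidation to ubiquinone, read 9.89 in GSK-J4 against 9.39 to 9.52. Gpd2, which does so from glycerol 3-phosphate, read 10.49 against 10.86 to 10.87. The ubiquinone synthesis genes Coq2 (margin 0.21) and Coq7 (−0.28) also parted. The mitochondrially encoded subunits, 10 measured, had a median of −0.24, with 9 below all controls, against 35.5% of all genes. ND3 alone was counted, as lower (all genes 0.841%), at 12.06 in GSK-J4 against 13.56 to 13.65.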

How the data were processed

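Gene expression was measured on Affymetrix arrays in 4 samples, 1 per treatment. The values are log2 levels made by the authors: per the submitters' processing notes, RMA was run in Affymetrix Expression Console 1.2.1.20. This method corrects background, forces a common distribution on all arrays and summarises each probe set, so a shift of all genes would not show. That the logarithm has base 2 was inferred from the range, 2.2 to 14.48. Scanner files were not used here, detection was therefore not examined, and precision is limited by the number of arrays. For the arrays' genome build, the sources used here give none.

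Of 41345 probe sets, 25335 are in the platform annotation, which can be old, and 23521 have a single symbol. The brightest probe set stood for each gene. Named genes were those past the 1.5-fold margin, the 3 highest and 3 lowest per complex, core subunits and tissue isoforms, and from each other list those past the margin and the 2 highest and 2 lowest; other genes were named after their values were seen. Members, lists and rules were chosen with earlier results of these data known. Alternatives were other filters, median centring, repeated quantile normalization, loess (span 0.3), the median over probe sets, a 1.2-fold margin, each control left out, another membership, and limma 3.58.1 with the 3 controls as replicates (2 residual degrees of freedom). Scripts used Python 3.11.15, pandas 2.3.3 and R 4.3.3, and the size rule was tested on simulated data. Promoter windows are from RefSeq, GRCm38.p6. No protein sequence was used here.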

Additional observations from a re-analysis of the deposited data

How the results depend on the processing

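The 4 counted genes kept their direction and stayed past 1.5-fold under median centring, repeated quantile normalization, loess, the median over probe sets and without each control array. Of 100 recomputed counts and medians over members, 89 stayed within 1.5 times (counts) or within the SD over the controls (medians), 10 moved and 1 changed sign. Repeated quantile normalization, which moved the median of all genes to −0.03 and the share of all genes below the controls to 42.5%, gave medians of −0.10 over members, −0.18 for complex II, −0.14 for complex III and −0.21 for complex V. The complex IV median was −0.10 with no filter, 0.01 with the filter at the 60th percentile (the change of sign), and −0.12 with Ndufa4 in complex IV. The complex III median was −0.13 without the GSK-J5 array, and that of complex I, −0.02, was 0.00. At the 60th percentile filter 1 member was counted higher (all genes 2.15%), as Cox6a2 no longer passed. At 1.2-fold 8 were lower (all genes 6.02%). limma with the controls as replicates called 3 members higher and 6 lower at an adjusted p of 0.05, against 8.22% and 4.99% of all genes. Its spread comes from 3 differently treated controls. With all 3 controls kept, members below them numbered 37 to 41 over the alternatives other than the stricter filter (all genes 35.3% to 42.5%). The stricter filter, with 67 members, gave 36 (all genes 34.9%), and no filter, with 81, gave 40 (36.3%). Leaving out the medium, DMSO or GSK-J5 array makes the rule easier to meet. The counts were then 46, 42 and 39, against 39.7%, 40.5% and 39.1% of all genes. Causes of these changes were not tested. No paired analysis was possible because each treatment has 1 array. Detection above background was not examined.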
